A study of Homo sapiens with 24 samples.

Results

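The genes described here encode surface receptors and adaptors by which myeloid cells read sugars, antibodies and self-molecules: the Siglec, C-type lectin (CLEC), leukocyte immunoglobulin-like receptor (LILR), CD300, Fc gamma receptor (FCGR) and MS4A families, together with CD22, TREM1, TREM2, TYROBP, FCER1G, PILRA and PILRB. They were chosen by symbol from the array's annotation, by a rule that uses no measured value but was written with earlier results of these data known. Of 19779 named genes, 80 met the rule, and 42 of these were detected, meaning a log2 intensity of 4 or more in 3 or more arrays of the series. The 42 genes are read by 41 probe sets, because FCGR1A and the pseudogene FCGR1CP share 1, which is counted once and called FCGR1A. The annotation of that probe set also lists the pseudogene FCGR1BP, which is counted by a brighter probe set of its own. PILRB and CLEC3B are read only by probe sets shared with genes outside these families and are outside the 80.

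In MLL-rearranged leukemia a fusion of MLL brings the histone methyltransferase DOT1L to its target genes, and EPZ004777 inhibits that enzyme. MV4-11, a biphenotypic B and myelomonocytic leukemia line with the MLL-AF4 fusion grown in IMDM, received 3 uM EPZ004777 or 0.1% DMSO as vehicle for 2, 4 or 6 days. MOLM-13, an acute myeloid leukemia line with MLL-AF9 grown in RPMI, received the same for 6 days. Each of the 8 groups has 3 arrays of total RNA, 24 in all. Both lines carry an MLL fusion, each is a single line, and line and medium differ together. The labels call the arrays of a group biological replicates without saying how they were made or whether the 3 times come from the same cultures, so every p-value measures the spread between these samples.

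Myeloid receptors of these families often come as pairs with opposite signals. Activating members have short tails and borrow an adaptor with an immunoreceptor tyrosine-based activation motif (ITAM), TYROBP (also DAP12) or FCER1G (the Fc receptor gamma chain), which recruits the kinase SYK. Inhibitory members carry immunoreceptor tyrosine-based inhibition motifs (ITIM) in their own tails and recruit the phosphatases PTPN6, PTPN11 or INPP5D. Among the 41 detected members, 14 are inhibitory receptors, 11 activating receptors, 2 adaptors, 2 pseudogenes and 12 others, by textbook role. By family there are 8 Siglecs, 6 LILR genes, 4 CD300 genes, 7 C-type lectins, 7 Fc receptor genes including FCER1G, 5 MS4A genes and 4 of the TREM, PILR and TYROBP group. On the chromosomes, 16 of the 42 detected genes lie on 19, which holds the Siglec and LILR clusters, 7 on chromosome 1 with the Fc receptors and 5 on chromosome 11 with the MS4A cluster.

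Values are the authors' GCRMA intensities on a log2 scale. Every array has the same lowest value, 2.19, which is a floor and not a measured absence. Some probe sets also repeat 1 identical value above 4 in several arrays: LILRA6 (5.76), PILRA (5.54), FCGR2C (6.73) and LILRB3 (7.52). What those repeated values stand for was not tested. A called change is one with an adjusted p under 0.05 in limma's moderated test, with Benjamini-Hochberg adjustment over all 10964 genes that passed the detection filter. The value after ± is the standard deviation for a level and the standard error of the fit for a fold change, with n = 3 arrays in each group. Where all 3 arrays of a group lie under the detection level of 4, its level has only a bound, so a fold against it is given as at least the other group's mean over that level, and the log2 difference beside it is the one measured. Levels of different genes come from different probes and are not compared.

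The arrays within a group correlated at 0.992 to 0.998 on average. Monocytic and granulocytic markers were present in both lines: CSF1R, ITGAM, MPEG1 and LYZ of 7 monocyte and macrophage markers, and MPO, ELANE, AZU1 and CSF3R of 6 granulocyte markers, passed a group mean of 4 in every group. CD14 passed in treated MOLM-13 alone of the 8 groups. Of 5 B cell markers, CD79B passed in every group and PAX5 in MV4-11 groups other than treated day 4, with a summed intensity of at most 91.9, so the B cell side of the MV4-11 label has little signal on these arrays. The summed monocyte and macrophage markers ran from 32402 to 41861 in treated MV4-11 arrays of day 6 against 19399 to 20008 with vehicle, and from 40591 to 46163 in treated MOLM-13 arrays against 16909 to 21614 with vehicle. The summed granulocyte markers ran from 44240 to 45388 in treated against 24113 to 25796 in vehicle MV4-11 arrays of day 6, and from 80021 to 82431 in treated against 65050 to 71677 in vehicle MOLM-13 arrays. In MOLM-13, MPO (log2 fold change 2.34) and CSF3R (1.09) were called higher, and AZU1 (0.03) and ELANE (0.06) were not called. Of 6 T and NK cell markers NKG7 alone passed 4 in MV4-11, with sums of 2276 to 2785 in treated against 1261 to 1385 in vehicle arrays of day 6, and CD3D and NCAM1 passed with it in MOLM-13 (3004 to 3116 in treated against 1756 to 1938 in vehicle arrays). The mast cell, basophil and eosinophil list, of which KIT and FCER1A passed in MV4-11, summed to 1191 to 1417 in treated against 407.0 to 425.4 in vehicle MV4-11 arrays of day 6. There KIT rose (log2 fold change 2.12) and FCER1A fell (-0.82), so the larger sum is not shared by both markers. In MOLM-13 the list summed to 54.2 to 62.3 in treated against 64.0 to 74.1 in vehicle arrays. The 5 dendritic cell markers (FLT3, IRF8 and IL3RA passed) summed to 11985 to 13299 in treated against 14767 to 15366 in vehicle MV4-11 arrays of day 6, and to 5803 to 6545 in treated against 10787 to 11818 in vehicle MOLM-13 arrays. In MV4-11 on day 6, FLT3 alone was called lower (log2 fold change -1.27), and IL3RA (-0.11) and IRF8 (0.13) were not called. All 3 were called lower in MOLM-13. The part of these markers in the results below was not tested. In bulk RNA, a change in the share of cells of one kind and a change in RNA per cell cannot be told apart.

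Sequence just upstream of the transcription start is shown for 5 members described below, 250 bases each, from RefSeq on GRCh38.p14, read in the direction of the gene. SIGLEC11 and SIGLEC16 are shown because they rose together in MOLM-13 alone among the 4 comparisons; capitals mark the stretch they share, identical at 159 of 161 aligned bases, or 98.8%, which ends 1 base before the start in SIGLEC11 and 90 bases before it in SIGLEC16.
SIGLEC11: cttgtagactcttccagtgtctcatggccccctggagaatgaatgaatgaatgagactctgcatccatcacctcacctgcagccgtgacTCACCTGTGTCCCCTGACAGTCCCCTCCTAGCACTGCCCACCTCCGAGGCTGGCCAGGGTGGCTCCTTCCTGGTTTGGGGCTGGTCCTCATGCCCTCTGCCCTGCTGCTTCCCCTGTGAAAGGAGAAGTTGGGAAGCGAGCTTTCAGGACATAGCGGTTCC
SIGLEC16: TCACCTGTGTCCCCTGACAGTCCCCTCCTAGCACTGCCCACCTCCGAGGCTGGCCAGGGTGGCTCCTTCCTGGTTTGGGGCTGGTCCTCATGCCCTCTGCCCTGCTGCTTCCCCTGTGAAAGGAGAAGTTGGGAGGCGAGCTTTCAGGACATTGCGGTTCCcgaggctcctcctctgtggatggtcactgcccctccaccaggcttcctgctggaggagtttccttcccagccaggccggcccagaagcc
SIGLEC11 lies on the minus strand at chr19:49961173-49961422 and SIGLEC16 on the plus strand at chr19:49969414-49969663. CLEC12A and SIGLEC10 are shown as the members that rose most in MV4-11, and FCGR1A as one that fell on all 3 days there; capitals mark matches to the motifs given next.
CLEC12A: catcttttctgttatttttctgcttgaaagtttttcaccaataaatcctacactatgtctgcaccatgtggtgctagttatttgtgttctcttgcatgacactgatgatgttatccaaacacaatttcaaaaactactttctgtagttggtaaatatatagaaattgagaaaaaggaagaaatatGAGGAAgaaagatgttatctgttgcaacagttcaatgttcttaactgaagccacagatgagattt
SIGLEC10: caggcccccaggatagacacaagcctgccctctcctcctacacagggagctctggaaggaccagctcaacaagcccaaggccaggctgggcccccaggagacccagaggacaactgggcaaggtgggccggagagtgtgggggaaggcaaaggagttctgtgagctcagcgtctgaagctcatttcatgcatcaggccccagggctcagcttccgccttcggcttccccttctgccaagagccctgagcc
FCGR1A: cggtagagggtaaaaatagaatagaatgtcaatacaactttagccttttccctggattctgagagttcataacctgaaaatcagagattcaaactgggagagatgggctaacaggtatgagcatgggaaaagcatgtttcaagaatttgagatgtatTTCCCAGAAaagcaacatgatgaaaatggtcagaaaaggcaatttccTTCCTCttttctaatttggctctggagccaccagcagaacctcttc
These lie at chr12:9971159-9971408 on the plus strand, chr19:51417643-51417892 on the minus strand and chr1:149782444-149782693 on the plus strand. The letters GAGGAA (a core used by the myeloid ETS factor PU.1) were searched on both strands and were found 65 bases before the start of CLEC12A and, as TTCCTC, 46 bases before that of FCGR1A. FCGR1A also holds TTCCCAGAA, a match to the STAT-type letters TTCNNNGAA, 93 bases before its start. GAGGAA was present in 12 of the 30 detected members with a listed promoter, or 40%, and in 23.6% of 35116 listed promoters of the same length. TTCNNNGAA was present in 6 of the 30, or 20%, and in 6.57% of all. The ETS-IRF composite motif, whose GGAA core can overlap GAGGAA, was present in 1 of the 30, or 3.33%, and in 2.41% of all. A match is a description of letters and not a bound site.

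Across the comparisons, the inhibitor's effect on the members was a mixture of rises and falls in MV4-11 and mostly rises in MOLM-13. On day 2 in MV4-11, 10 of 41 detected members were higher and 2 lower with EPZ004777, when 12.5% of all genes were called, 8.84% higher and 3.69% lower. On day 4, 18 were higher and 14 lower, when 46.2% of all genes were called, 25.2% higher and 21.0% lower. On day 6, 18 were higher and 9 lower, when 62.0% of all genes were called, 33.6% higher and 28.4% lower, which is near the members' own share. In MOLM-13 on day 6, 28 of 41 were higher and 5 lower, when 65.8% of all genes were called, 29.3% higher and 36.5% lower. Of the 28, SIGLEC11, SIGLEC16, CLEC4A and CD300LB reached the detection level in treated MOLM-13 arrays and in no other group, so they passed the filter only through the group where they are high and had to differ. Without them, 24 of 37 were higher and 5 lower. Treated and vehicle arrays were fully separated for 29 members on day 2, 37 on day 4, 28 on day 6 and 33 in MOLM-13, when 38.9%, 59.1%, 64.8% and 68.3% of all genes were. The median log2 fold change of the members was 0.13, 0.11 and 0.25 on days 2, 4 and 6 in MV4-11 and 0.62 in MOLM-13 (0.45 over the 37), where the median of all genes was 0.02, 0.01, 0.04 and -0.03. With time in MV4-11, the effect changed between days 2 and 4 for 6 members upward and 9 downward, when 15.0% of all genes were called, 7.22% upward and 7.78% downward. Between days 4 and 6 it changed for 11 upward and 5 downward, when 25.7% were called, 13.9% upward and 11.9% downward. Members called at 2-fold or more numbered 3 higher and 0 lower on day 2, 4 and 6 on day 4, 7 and 5 on day 6, and 15 and 0 in MOLM-13 (13 and 0 of the 37). Of all genes, 1.13% were 2-fold higher and 0.173% lower on day 2, 4.22% and 2.79% on day 4, 7.81% and 3.86% on day 6, and 5.55% and 7.22% in MOLM-13.

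**Figure D1:**
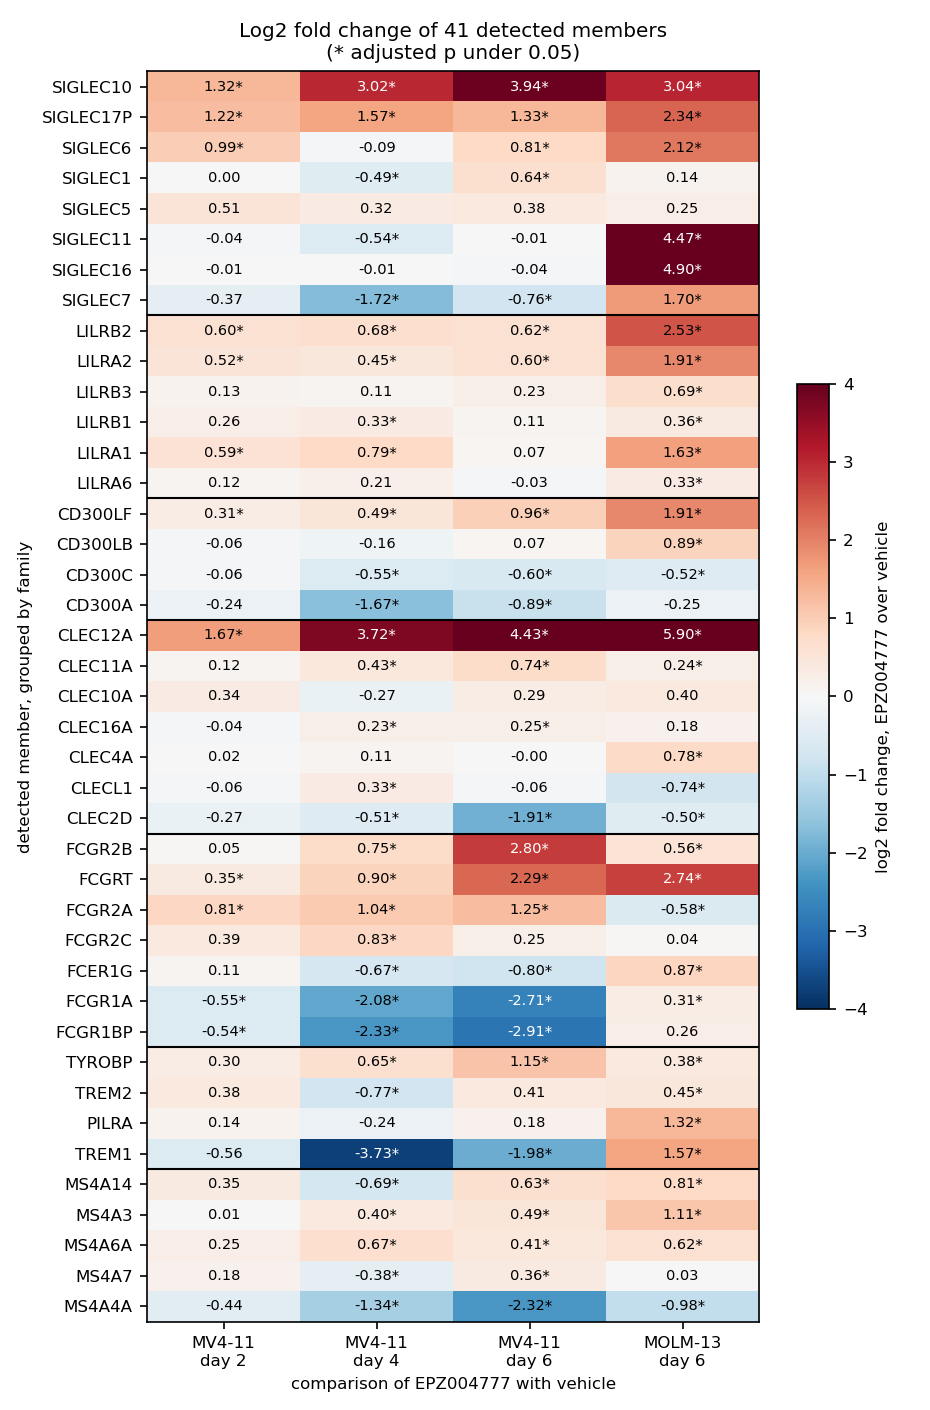
Log2 fold change of EPZ004777 over vehicle for each of the 41 detected members (rows, grouped by family) in the 4 comparisons (columns), with * for an adjusted p under 0.05; the colour scale is capped at 4 on either side. CLEC12A and SIGLEC10 are red in all 4 columns, FCGR1A and FCGR1BP are blue in the 3 MV4-11 columns, and SIGLEC11 and SIGLEC16 are red in the MOLM-13 column.

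Of the inhibitory receptors, 5 of 14 were higher and 0 lower on day 2, 6 higher and 3 lower on day 4, 6 higher and 2 lower on day 6, and 12 higher and 0 lower in MOLM-13. The activating receptors gave 3 higher and 1 lower of 11 on day 2, 4 and 4 on day 4, 2 and 3 on day 6, and 8 and 2 in MOLM-13. Of all genes, 8.84% were higher and 3.69% lower on day 2, and 25.2% and 21.0% on day 4. Those shares were 33.6% and 28.4% on day 6 and 29.3% and 36.5% in MOLM-13. The median log2 fold change in MOLM-13 was 1.51 for inhibitory and 0.45 for activating receptors, and -0.03 for all genes. Each role includes 2 of the 4 members detected only in treated MOLM-13, namely SIGLEC11 and CLEC4A (inhibitory) and SIGLEC16 and CD300LB (activating). These had to be higher there, and the MOLM-13 counts and medians include them. The difference between the roles was not tested, since the members were chosen with results known.

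Before the single genes, 2 features of the arrays bear on the values. The vehicle arrays of day 4 stood apart from those of days 2 and 6: among vehicle cultures 17 of 41 members were called higher and 1 lower on day 4 than on the other days, when 28.6% of all genes were called, 13.4% higher and 15.2% lower. Vehicle day 6 against day 2 gave 2 members higher and 0 lower, with 11 at an unadjusted p under 0.05, when 1.12% of all genes were called, 0.784% higher and 0.337% lower. TREM1 (2.48 ± 0.50, adjusted p = 0.00105), SIGLEC6 (1.31 ± 0.25, adjusted p = 0.000785), MS4A14 (1.12 ± 0.19, adjusted p = 0.000214) and CD300A (0.89 ± 0.14, adjusted p = 8.95e-05) had the largest log2 shifts of the day 4 vehicle arrays, in limma. Day 4 treated arrays were therefore also set against the vehicle arrays of days 2 and 6 together, which gave 21 members higher and 9 lower when 57.1% of all genes were called, 29.1% higher and 28.0% lower. The second feature is the log2 difference between 3' and 5' probe sets of ACTB and GAPDH, a measure of RNA integrity, which was 2.10 to 2.84 in treated against 0.954 to 1.15 in vehicle MOLM-13 arrays, 0.826 to 1.91 in treated against 0.567 to 0.583 in vehicle MV4-11 arrays of day 6, and 0.525 to 0.817 elsewhere. With that difference as a covariate, 28 members were called on day 6 in MV4-11 and 24 in MOLM-13, where 27 and 33 were called without it. In both comparisons it separates all treated from all vehicle arrays. It also does so on day 2 (0.525 to 0.574 in treated against 0.641 to 0.676 in vehicle arrays), with treated arrays lower. The same holds on day 4 (0.590 to 0.668 in treated against 0.695 to 0.817 in vehicle arrays). RNA integrity and treatment therefore cannot be told apart in any of the 4 comparisons. A call lost, kept or reversed with the covariate, here or below, does not separate them.

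The adaptors moved apart in MV4-11. TYROBP, the ITAM adaptor of TREM and several Siglec and CD300 receptors, rose on days 4 and 6 and in MOLM-13. It read 14.07, 14.13 and 13.69 in treated against 12.91, 12.79 and 12.74 in vehicle arrays on day 6 (log2 fold change 1.15 ± 0.10, adjusted p = 1.1e-08). On day 4, TYROBP read 13.55, 13.61 and 13.63 in treated against 13.09, 12.88 and 12.88 in vehicle arrays (0.65 ± 0.10, adjusted p = 3.17e-05). On day 2, TYROBP read 12.99, 12.95 and 12.93 in treated against 12.56, 12.71 and 12.69 in vehicle arrays (0.30 ± 0.10, adjusted p = 0.0579). The groups did not overlap on any day, although the day 2 difference was not called. In MOLM-13, TYROBP read 12.49, 12.21 and 12.55 in treated against 11.92, 12.07 and 12.10 in vehicle arrays (log2 fold change 0.38 ± 0.10, adjusted p = 0.00281). On day 6 the effect was smaller in MOLM-13, with a difference from MV4-11 of -0.76 ± 0.14, adjusted p = 0.000207.

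FCER1G, the adaptor of FCGR1A, of the activating LILRs and of CD300C, fell in MV4-11 on days 4 and 6 and rose in MOLM-13, where its level was low. On day 6 it read 9.84, 9.92 and 9.40 in treated against 10.74, 10.66 and 10.17 in vehicle MV4-11 arrays (log2 fold change -0.80 ± 0.18, adjusted p = 0.000746). On day 4 the values were 10.06, 10.00 and 10.04 in treated against 10.81, 10.61 and 10.71 in vehicle arrays (-0.67 ± 0.18, adjusted p = 0.00468). Against the vehicle arrays of days 2 and 6 the day 4 difference was -0.18 ± 0.16, adjusted p = 0.344, not called. On day 2 they were 10.01, 10.05 and 10.00 in treated against 9.93, 9.88 and 9.91 in vehicle arrays (0.11 ± 0.18, adjusted p = 0.788), also not called. In MOLM-13, FCER1G read 4.27, 5.03 and 5.06 with EPZ004777 against 3.71, 4.20 and 3.83 with vehicle (log2 fold change 0.87 ± 0.18, adjusted p = 0.000316). Those MOLM-13 levels sit near the detection limit. Vehicle MOLM-13 differed from vehicle MV4-11 by -6.61 ± 0.18, adjusted p = 3.68e-17, the most negative value of the members in that comparison. A second FCER1G probe set gave -1.05 (adjusted p = 7.33e-06) on day 6 in MV4-11 and 0.10 (adjusted p = 0.572) in MOLM-13, so the MOLM-13 rise rests on the main probe set.

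**Figure D2:**
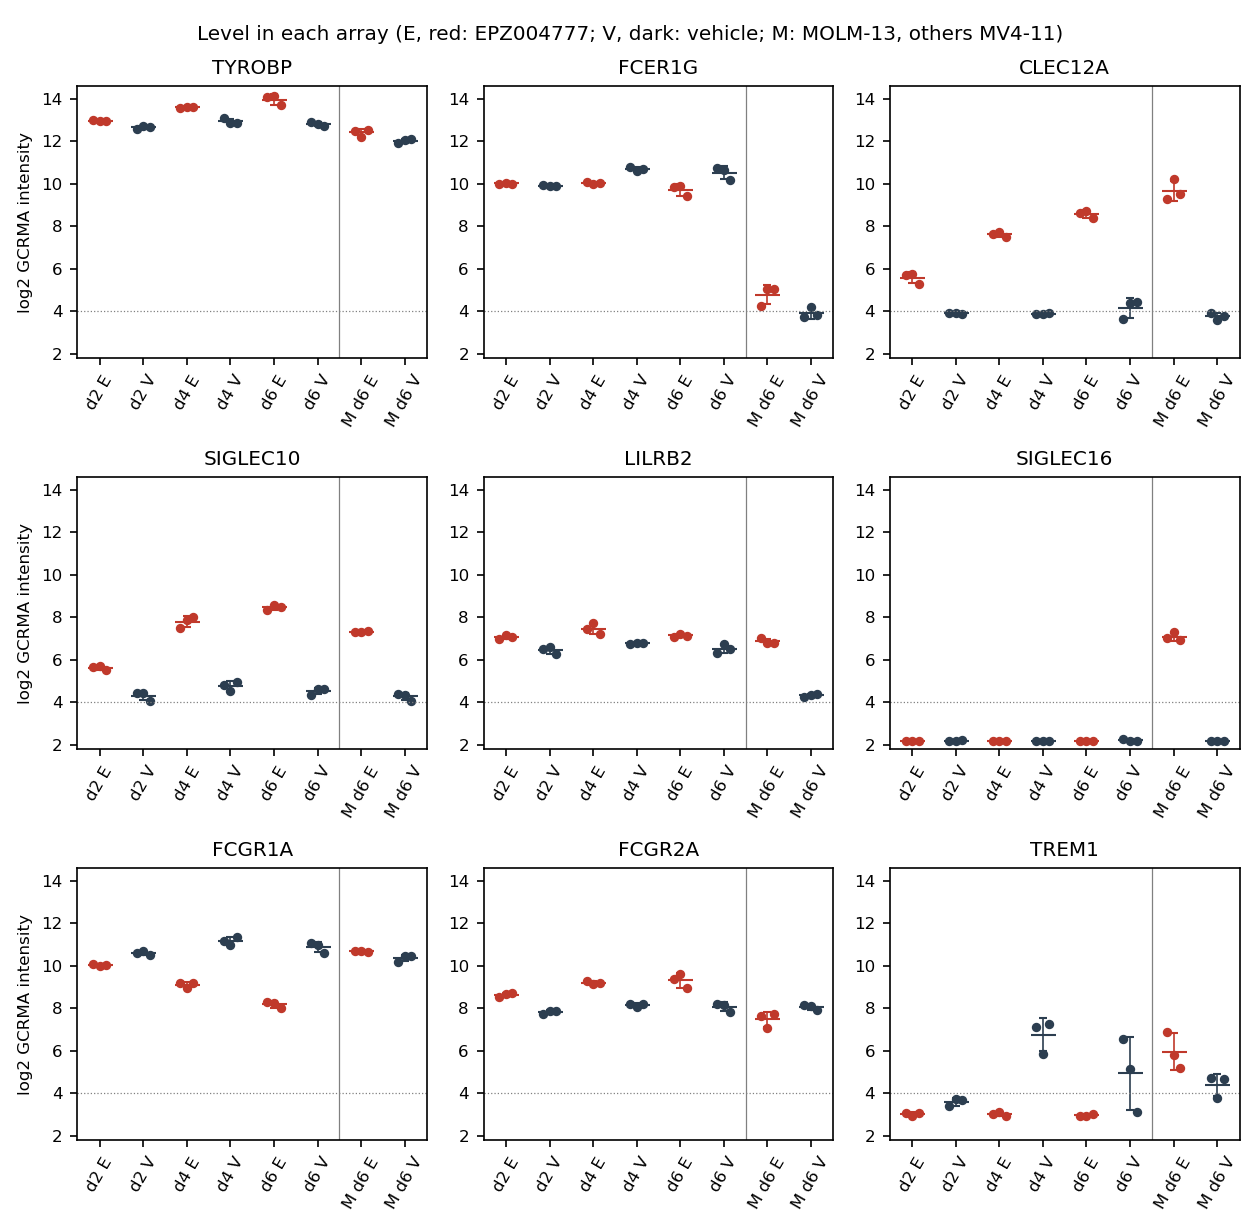
Log2 intensity in each of the 24 arrays (points) with the group mean and SD for 9 members, treated arrays (E, red) left of their vehicle arrays (V, dark); d2, d4 and d6 are days in MV4-11 and M marks MOLM-13, and the dotted line is the detection level of 4. SIGLEC16 leaves the floor in the treated MOLM-13 arrays, FCGR1A falls over the days in MV4-11, and the TREM1 vehicle arrays of day 6 in MV4-11 lie far apart.

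Among inhibitory receptors, CLEC12A (MICL), an ITIM lectin of myeloid cells that binds uric acid crystals, was the member with the largest rise in each of the 4 comparisons. Its treated MV4-11 arrays read 5.69, 5.75 and 5.28 on day 2, 7.63, 7.75 and 7.48 on day 4 and 8.63, 8.73 and 8.39 on day 6. Vehicle arrays lay near the detection level, at 3.90, 3.93 and 3.88 on day 2, 3.88, 3.88 and 3.92 on day 4 and 3.62, 4.39 and 4.45 on day 6. The treated arrays climbed with time and overlapped vehicle on no day. The log2 fold change was 1.67 ± 0.21, adjusted p = 1.41e-05 on day 2, 3.72 ± 0.21, adjusted p = 2.5e-11 on day 4 and 4.43 ± 0.21, adjusted p = 9.86e-13 on day 6, the last equal to 21.5-fold. In MOLM-13, CLEC12A read 9.26, 10.20 and 9.52 in treated against 3.92, 3.59 and 3.78 in vehicle arrays (log2 fold change 5.90 ± 0.21, adjusted p = 1.02e-14), at least 50.7-fold, since all 3 vehicle arrays lay under the detection level. The rise between days 2 and 4 was itself called (2.05 ± 0.29, adjusted p = 6.35e-05), as was the excess of MOLM-13 over MV4-11 (1.47 ± 0.29, adjusted p = 0.00034). A dimmer CLEC12A probe set gave 3.75 (adjusted p = 4.92e-08) on day 6 in MV4-11 and 0.82 (adjusted p = 0.053) in MOLM-13.

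SIGLEC10, an ITIM Siglec that binds CD24, rose on the same days. On day 2 it read 5.68, 5.70 and 5.51 in treated against 4.42, 4.43 and 4.07 in vehicle arrays (log2 fold change 1.32 ± 0.14, adjusted p = 1.36e-06). On day 4, SIGLEC10 read 7.49, 7.88 and 7.995 in treated against 4.83, 4.52 and 4.96 in vehicle arrays (3.02 ± 0.14, adjusted p = 1.26e-12). By day 6 it read 8.34, 8.59 and 8.46 in treated against 4.35, 4.63 and 4.61 in vehicle arrays (3.94 ± 0.14, adjusted p = 1.19e-14), or 15.3-fold. No treated array overlapped a vehicle array on any day. In MOLM-13, SIGLEC10 read 7.30, 7.33 and 7.34 in treated against 4.40, 4.36 and 4.07 in vehicle arrays (log2 fold change 3.04 ± 0.14, adjusted p = 4.68e-13). The rise was smaller there, with a difference from MV4-11 of -0.89 ± 0.19, adjusted p = 0.000692. The effect grew between days 2 and 4 (1.70 ± 0.19, adjusted p = 5.13e-06) and between days 4 and 6 (0.92 ± 0.19, adjusted p = 0.00219). SIGLEC17P, a human pseudogene of an activating Siglec, read 6.80, 6.73 and 6.62 in treated against 5.53, 5.58 and 5.38 in vehicle arrays on day 2 (log2 fold change 1.22 ± 0.14, adjusted p = 4.83e-06). On day 4, SIGLEC17P read 7.66, 7.63 and 7.80 in treated against 6.27, 5.92 and 6.17 in vehicle arrays (1.57 ± 0.14, adjusted p = 1.8e-08). On day 6 it read 8.09, 7.93 and 7.64 in treated against 6.60, 6.58 and 6.48 in vehicle arrays (1.33 ± 0.14, adjusted p = 9.44e-08). In MOLM-13, SIGLEC17P read 7.52, 7.28 and 7.42 in treated against 5.11, 4.71 and 5.40 in vehicle arrays (2.34 ± 0.14, adjusted p = 3.9e-11). It rose with the inhibitor in each comparison. It is also 1 of 2 members that rose with time in vehicle cultures (1.06 ± 0.14, adjusted p = 0.000555, day 6 against day 2); the other is LILRA2 (0.51 ± 0.08, adjusted p = 0.00422).

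SIGLEC11, an inhibitory Siglec, and SIGLEC16, its activating TYROBP-coupled counterpart, were under the detection level in MV4-11 and well above it in treated MOLM-13. SIGLEC11 read 7.61, 7.76 and 7.18 in treated against 3.44, 3.22 and 2.48 in vehicle MOLM-13 arrays (log2 fold change 4.47 ± 0.20, adjusted p = 4.94e-13). SIGLEC16 read 7.03, 7.31 and 6.95 in treated arrays and 2.19, 2.19 and 2.19 in vehicle arrays, all 3 of which are at the floor. Its difference (4.90 ± 0.06, adjusted p = 1.55e-21) therefore depends on where that floor lies. Against the detection level, the rise was at least 11.4-fold for SIGLEC11 and at least 8.54-fold for SIGLEC16. Both genes passed the filter only through the treated MOLM-13 arrays, so they had to differ there. In the 18 MV4-11 arrays SIGLEC16 lay between 2.19 and 2.29 and SIGLEC11 between 2.33 and 3.30. SIGLEC11 was called lower on day 4 (-0.54 ± 0.20, adjusted p = 0.0329) with both groups below detection, and against the vehicle arrays of days 2 and 6 its value was -0.04 ± 0.17, adjusted p = 0.865. The difference of effect between the lines was 4.48 ± 0.28, adjusted p = 2.08e-10 for SIGLEC11 and 4.94 ± 0.09, adjusted p = 1.1e-18 for SIGLEC16. The 2 genes are close relatives whose copies share sequence, as in the upstream stretch above, so the signal of 1 probe set may hold RNA of the other gene, which was not tested.

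SIGLEC7, an inhibitory Siglec best known on natural killer cells and also present on monocytes, went opposite ways in the lines. In MV4-11 it read 5.65, 5.21 and 5.83 in treated against 7.27, 6.95 and 7.64 in vehicle arrays on day 4 (log2 fold change -1.72 ± 0.18, adjusted p = 1.66e-07). On day 6, SIGLEC7 read 6.69, 6.25 and 6.29 in treated against 7.29, 7.43 and 6.77 in vehicle arrays (-0.76 ± 0.18, adjusted p = 0.00104). On day 2, SIGLEC7 read 6.71, 6.75 and 6.57 in treated against 6.99, 7.11 and 7.06 in vehicle arrays (-0.37 ± 0.18, adjusted p = 0.203). On day 4 the value against the other days' vehicle was -1.54 ± 0.15, adjusted p = 6.56e-08, and the MV4-11 groups overlapped on no day. In MOLM-13, SIGLEC7 read 7.81, 7.87 and 7.81 with EPZ004777 against 6.19, 5.99 and 6.24 with vehicle (log2 fold change 1.70 ± 0.18, adjusted p = 9.32e-08), with a difference between lines of 2.45 ± 0.25, adjusted p = 1.73e-07. A second SIGLEC7 probe set was not called, with -0.10 (adjusted p = 0.482) on day 4 and 0.11 (adjusted p = 0.344) in MOLM-13, and one more, with a mean of 3.44, was called lower on day 6 and higher in MOLM-13. SIGLEC6 rose in MOLM-13, with arrays that read 6.17, 6.42 and 6.80 in treated against 4.46, 4.41 and 4.15 in vehicle cells (log2 fold change 2.12 ± 0.29, adjusted p = 3.2e-06). On day 2 in MV4-11 it read 5.29, 5.78 and 5.29 in treated against 4.32, 3.79 and 5.25 in vehicle arrays (0.99 ± 0.29, adjusted p = 0.0299), a call lost without any 1 of 5 of the 6 arrays (0.66, adjusted p = 0.187, without vehicle replicate 2). It was also called on day 6 (0.81 ± 0.29, adjusted p = 0.0219), a call lost without any 1 of 4 arrays (0.59, adjusted p = 0.117, without vehicle replicate 3). On day 4 its difference was -0.09 ± 0.29, adjusted p = 0.853 against the same day's vehicle and 1.22 ± 0.25, adjusted p = 0.000383 against the other days' vehicle. SIGLEC5, whose probes may also read its near copy SIGLEC14, read 7.21, 6.98 and 7.01 in treated against 6.60, 6.99 and 6.47 in vehicle arrays on day 6 (0.38 ± 0.19, adjusted p = 0.0913). In MOLM-13, SIGLEC5 read 5.84, 5.28 and 5.69 in treated against 5.07, 5.84 and 5.13 in vehicle arrays (0.25 ± 0.19, adjusted p = 0.255). It was called in none of the 4 comparisons, and on days 2 and 4 its differences were 0.51 ± 0.19, adjusted p = 0.0947 and 0.32 ± 0.19, adjusted p = 0.189. SIGLEC1, the sialoadhesin of macrophages, lay between 3.13 and 4.35 in all arrays. Its calls on day 4 (-0.49 ± 0.15, adjusted p = 0.0135) and day 6 (0.64 ± 0.15, adjusted p = 0.00128) had opposite signs. The day 4 value was -0.27, adjusted p = 0.116, without vehicle replicate 1, and 0.07 ± 0.13, adjusted p = 0.688 against the other days' vehicle.

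The LILR genes, receptors for MHC class I and other self-molecules, were called lower in vehicle MOLM-13 than in vehicle MV4-11 and called higher in MOLM-13 with EPZ004777, 6 of 6 in both cases. Of all genes, 33.1% were called lower in the first comparison and 29.3% higher in the second. The same vehicle MOLM-13 arrays enter both, so the 2 counts are not independent. The second count includes LILRA6, whose 3 treated MOLM-13 arrays all read its repeated value of 5.76. LILRB2, an inhibitory receptor for MHC class I, read 7.01, 6.79 and 6.79 in treated against 4.27, 4.35 and 4.38 in vehicle MOLM-13 arrays (log2 fold change 2.53 ± 0.11, adjusted p = 5.33e-13), or 5.77-fold. The MOLM-13 groups lay far apart, whereas those of MV4-11 were closer. In MV4-11 it read 6.98, 7.15 and 7.05 in treated against 6.50, 6.60 and 6.27 in vehicle arrays on day 2 (0.60 ± 0.11, adjusted p = 0.0013). On day 4, LILRB2 read 7.43, 7.74 and 7.22 in treated against 6.76, 6.79 and 6.81 in vehicle arrays (0.68 ± 0.11, adjusted p = 5.92e-05). On day 6, LILRB2 read 7.08, 7.21 and 7.14 in treated against 6.34, 6.72 and 6.52 in vehicle arrays (0.62 ± 0.11, adjusted p = 0.000104). Treated MOLM-13 arrays lay within the range of the MV4-11 arrays. Vehicle MOLM-13 differed from vehicle MV4-11 by -2.20 ± 0.11, adjusted p = 1.37e-12. The other inhibitory members moved less. LILRB1, another MHC class I receptor, read 8.04, 7.90 and 7.84 in treated against 7.50, 7.83 and 7.37 in vehicle MOLM-13 arrays (0.36 ± 0.13, adjusted p = 0.0166). On day 4, LILRB1 read 9.37, 9.24 and 9.42 in treated against 9.23, 8.88 and 8.93 in vehicle arrays (0.33 ± 0.13, adjusted p = 0.0365). Both calls are lost when single arrays are left out (0.26 to 0.33). LILRB1 was not called on day 2 (0.26 ± 0.13, adjusted p = 0.202) or day 6 (9.15, 9.37 and 8.81 in treated against 8.999, 9.11 and 8.91 in vehicle arrays, 0.11 ± 0.13, adjusted p = 0.479). LILRB3 rose in MOLM-13 (0.69 ± 0.10, adjusted p = 4.77e-06), with means of 7.53 ± 0.20 with EPZ004777 and 6.84 ± 0.05 with vehicle, and in MV4-11 its means lay between 7.39 and 7.71 with no call.

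Activating LILRs couple to FCER1G. LILRA2 rose in each comparison, by 0.52, 0.45 and 0.60 on the log2 scale on days 2, 4 and 6 and by 1.91 ± 0.08, adjusted p = 4.2e-13 in MOLM-13, where it read 11.55, 11.87 and 11.57 in treated against 9.71, 9.69 and 9.84 in vehicle arrays. With the mean of its probe sets, its day 6 value was 0.14, adjusted p = 0.429, not called. LILRA1 read 8.11, 8.04 and 8.002 in treated against 6.55, 6.44 and 6.28 in vehicle MOLM-13 arrays (1.63 ± 0.06, adjusted p = 5.49e-14). The MOLM-13 groups did not overlap. In MV4-11 it read 9.01, 8.99 and 9.06 in treated against 8.38, 8.48 and 8.45 in vehicle arrays on day 2 (0.59 ± 0.06, adjusted p = 2.54e-06). On day 4, LILRA1 read 9.18, 9.13 and 9.19 in treated against 8.32, 8.45 and 8.37 in vehicle arrays (0.79 ± 0.06, adjusted p = 4.72e-09). On day 6, LILRA1 read 8.63, 8.62 and 8.71 in treated against 8.58, 8.65 and 8.52 in vehicle arrays (0.07 ± 0.06, adjusted p = 0.37). The rise was thus called on days 2 and 4 and not on day 6, and the drop in effect between days 4 and 6 was itself called (-0.72 ± 0.09, adjusted p = 2.31e-05), as was the larger effect in MOLM-13 (1.56 ± 0.09, adjusted p = 4.69e-11). A dimmer LILRA1 probe set was called lower on day 6 in MV4-11 (-0.67, adjusted p = 0.00523). LILRA6 rose by 0.33 ± 0.11, adjusted p = 0.0125 in MOLM-13 (0.24, adjusted p = 0.0841, without vehicle replicate 1) and had no call in MV4-11. LILR genes are near copies of each other, and probe sets may read more than 1 of them.

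In the CD300 family, lipid-binding receptors of myeloid cells, the inhibitory members CD300LF and CD300A differed. CD300LF read 10.75, 10.79 and 10.63 in treated against 10.40, 10.37 and 10.46 in vehicle arrays on day 2 (log2 fold change 0.31 ± 0.07, adjusted p = 0.00417). On day 4, CD300LF read 11.09, 11.25 and 11.21 in treated against 10.65, 10.68 and 10.74 in vehicle arrays (0.49 ± 0.07, adjusted p = 7.14e-06). On day 6, CD300LF read 11.35, 11.35 and 11.45 in treated against 10.48, 10.32 and 10.46 in vehicle arrays (0.96 ± 0.07, adjusted p = 4.37e-10). It was higher with the inhibitor on each day. Its MOLM-13 arrays read 11.28, 11.32 and 11.18 in treated against 9.28, 9.49 and 9.28 in vehicle arrays (1.91 ± 0.07, adjusted p = 1.33e-14), and the groups overlapped in none of the 4 comparisons. CD300A read 8.997, 8.63 and 8.79 in treated against 10.57, 10.25 and 10.62 in vehicle arrays on day 4 (-1.67 ± 0.16, adjusted p = 4.15e-08). On day 6, CD300A read 8.98, 8.98 and 8.76 in treated against 10.13, 9.90 and 9.37 in vehicle arrays (-0.89 ± 0.16, adjusted p = 5.87e-05). The day 4 value against the other days' vehicle was -0.79 ± 0.14, adjusted p = 5.52e-05. It was not called on day 2 (9.31, 9.01 and 9.13 in treated against 9.59, 9.32 and 9.27 in vehicle arrays, -0.24 ± 0.16, adjusted p = 0.38) or in MOLM-13 (10.94, 11.07 and 10.86 in treated against 11.05, 11.35 and 11.21 in vehicle arrays, -0.25 ± 0.16, adjusted p = 0.172), although a second CD300A probe set was called lower there (-1.20, adjusted p = 5.16e-05). Of the activating pair, CD300C read 6.79, 6.41 and 6.54 in treated against 7.07, 7.16 and 7.08 in vehicle MOLM-13 arrays (-0.52 ± 0.15, adjusted p = 0.00508) and was also lower on day 4 (-0.55 ± 0.15, adjusted p = 0.00529) and day 6 (-0.60 ± 0.15, adjusted p = 0.00201). CD300LB rose in MOLM-13 (0.89 ± 0.09, adjusted p = 9.71e-08) to 4.39 ± 0.12, against 3.50 ± 0.19 with vehicle, and stayed under the detection level in MV4-11. Against the detection level its rise was at least 1.31-fold. CD300LB passed the filter only through the treated MOLM-13 arrays, so it had to differ there.

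The Fc gamma receptors bind the constant part of IgG. FCGR1A, the high-affinity activating receptor, fell more with each day in MV4-11 and did not fall in MOLM-13. It read 10.10, 9.99 and 10.03 in treated against 10.59, 10.68 and 10.51 in vehicle arrays on day 2 (log2 fold change -0.55 ± 0.12, adjusted p = 0.00326). On day 4, FCGR1A read 9.19, 8.93 and 9.18 in treated against 11.18, 11.00 and 11.38 in vehicle arrays (-2.08 ± 0.12, adjusted p = 2.75e-11). On day 6, FCGR1A read 8.30, 8.25 and 8.01 in treated against 11.09, 10.97 and 10.62 in vehicle arrays (-2.71 ± 0.12, adjusted p = 3.18e-13), or 6.53-fold lower. The groups did not overlap on any day, and the change of effect was called between days 2 and 4 (-1.53 ± 0.16, adjusted p = 2.87e-06) and between days 4 and 6 (-0.62 ± 0.16, adjusted p = 0.0101). In MOLM-13, FCGR1A read 10.68, 10.70 and 10.66 in treated against 10.20, 10.48 and 10.45 in vehicle arrays (0.31 ± 0.12, adjusted p = 0.0261), a small rise whose call is lost without vehicle replicate 1 (0.22, adjusted p = 0.141) or either of treated replicates 1 and 2, and the lines differed by 3.01 ± 0.16, adjusted p = 2.22e-11. Against the vehicle arrays of days 2 and 6, the day 4 values were -1.64 ± 0.10, adjusted p = 7.09e-11 for FCGR1A and -1.72 ± 0.11, adjusted p = 6.88e-11 for FCGR1BP. FCGR1BP, a pseudogene and near copy, gave 10.17, 10.26 and 10.11 in treated against 10.81, 10.68 and 10.67 in vehicle arrays on day 2 (-0.54 ± 0.12, adjusted p = 0.0056). On day 4, FCGR1BP read 9.35, 9.14 and 9.15 in treated against 11.51, 11.40 and 11.70 in vehicle arrays (-2.33 ± 0.12, adjusted p = 1.06e-11). On day 6, FCGR1BP read 8.36, 8.38 and 7.97 in treated against 11.36, 11.19 and 10.89 in vehicle arrays (-2.91 ± 0.12, adjusted p = 2.05e-13). The 2 probe sets cannot be counted as independent, and which of the FCGR1 copies they read was not tested. FCGR1BP in MOLM-13 read 11.07, 11.23 and 10.98 in treated against 10.67, 10.96 and 10.88 in vehicle arrays (0.26 ± 0.12, adjusted p = 0.0725), with a difference between lines of 3.16 ± 0.17, adjusted p = 2.11e-11 and between days 4 and 2 of -1.79 ± 0.17, adjusted p = 7.43e-07.

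FCGR2A, a lower-affinity receptor with an ITAM of its own, rose in MV4-11 and fell in MOLM-13. On days 2, 4 and 6 it read 8.51, 8.66 and 8.72, then 9.29, 9.12 and 9.21, then 9.37, 9.62 and 8.95 in treated arrays. The vehicle arrays of those days read 7.72, 7.87 and 7.87, then 8.22, 8.05 and 8.22, then 8.20, 8.17 and 7.82, giving log2 fold changes of 0.81 ± 0.16, adjusted p = 0.00186 on day 2, 1.04 ± 0.16, adjusted p = 2.37e-05 on day 4 and 1.25 ± 0.16, adjusted p = 1.45e-06 on day 6. No treated array overlapped vehicle. With the mean of its probe sets the day 2 value was 0.21, adjusted p = 0.0592, not called. In MOLM-13, FCGR2A read 7.66, 7.05 and 7.71 in treated against 8.15, 8.10 and 7.91 in vehicle arrays (log2 fold change -0.58 ± 0.16, adjusted p = 0.00366), and the lines differed by -1.82 ± 0.23, adjusted p = 1.96e-06. With the 3' to 5' difference as a covariate the MOLM-13 value was 0.23, adjusted p = 0.402. FCGR2B, the inhibitory Fc gamma receptor, was under the detection level in vehicle arrays and rose late. On day 6 it read 5.77, 6.25 and 6.32 in treated against 3.51, 2.97 and 3.46 in vehicle arrays (log2 fold change 2.80 ± 0.23, adjusted p = 3.77e-09), at least 4.33-fold. On day 4, FCGR2B read 4.75, 3.67 and 4.15 in treated against 3.45, 3.46 and 3.41 in vehicle arrays (0.75 ± 0.23, adjusted p = 0.0121). On day 2, FCGR2B read 3.46, 3.15 and 3.47 in treated against 3.04, 3.45 and 3.45 in vehicle arrays (0.05 ± 0.23, adjusted p = 0.955). The day 4 call was lost without treated replicate 1 (0.47, adjusted p = 0.1), and the growth of the effect between days 4 and 6 was called (2.05 ± 0.33, adjusted p = 0.000237). Its MOLM-13 arrays read 4.60, 4.09 and 3.75 in treated against 3.53, 3.61 and 3.63 in vehicle arrays (0.56 ± 0.23, adjusted p = 0.0412), a call lost without any 1 of 5 of the 6 arrays (0.33, adjusted p = 0.237, without treated replicate 1), and the lines differed by -2.24 ± 0.33, adjusted p = 1.3e-05. FCGR2C, a near copy of both, read 7.52, 7.67 and 7.50 in treated against 6.73, 6.74 and 6.73 in vehicle arrays on day 4 (0.83 ± 0.25, adjusted p = 0.0102) and was not called on day 2 (0.39 ± 0.25, adjusted p = 0.381), day 6 (0.25 ± 0.25, adjusted p = 0.405) or in MOLM-13 (0.04 ± 0.25, adjusted p = 0.897). The 3 FCGR2 genes share most of their coding sequence, so their probe sets may read each other's RNA.

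FCGRT, the heavy chain of the neonatal Fc receptor that recycles IgG and albumin inside cells, is not a signalling receptor. It rose on each day in MV4-11 and in MOLM-13. On day 2 it read 9.12, 8.996 and 9.01 in treated against 8.63, 8.82 and 8.60 in vehicle arrays (log2 fold change 0.35 ± 0.10, adjusted p = 0.0204; 0.31 to 0.33 and not called without any 1 of 3 arrays). On day 4, FCGRT read 9.86, 9.93 and 9.88 in treated against 9.19, 8.89 and 8.88 in vehicle arrays (0.90 ± 0.10, adjusted p = 2.92e-07). On day 6, FCGRT read 11.04, 11.18 and 10.74 in treated against 8.72, 8.71 and 8.65 in vehicle arrays (2.29 ± 0.10, adjusted p = 2.59e-13), or 4.91-fold higher. In MOLM-13, FCGRT read 11.65, 11.75 and 11.80 in treated against 8.88, 9.02 and 9.09 in vehicle arrays (2.74 ± 0.10, adjusted p = 1.33e-14), or 6.66-fold higher. The effect grew between days 4 and 6 (1.39 ± 0.14, adjusted p = 2.43e-06), and MOLM-13 exceeded MV4-11 by 0.44 ± 0.14, adjusted p = 0.0116.

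**Figure D3:**
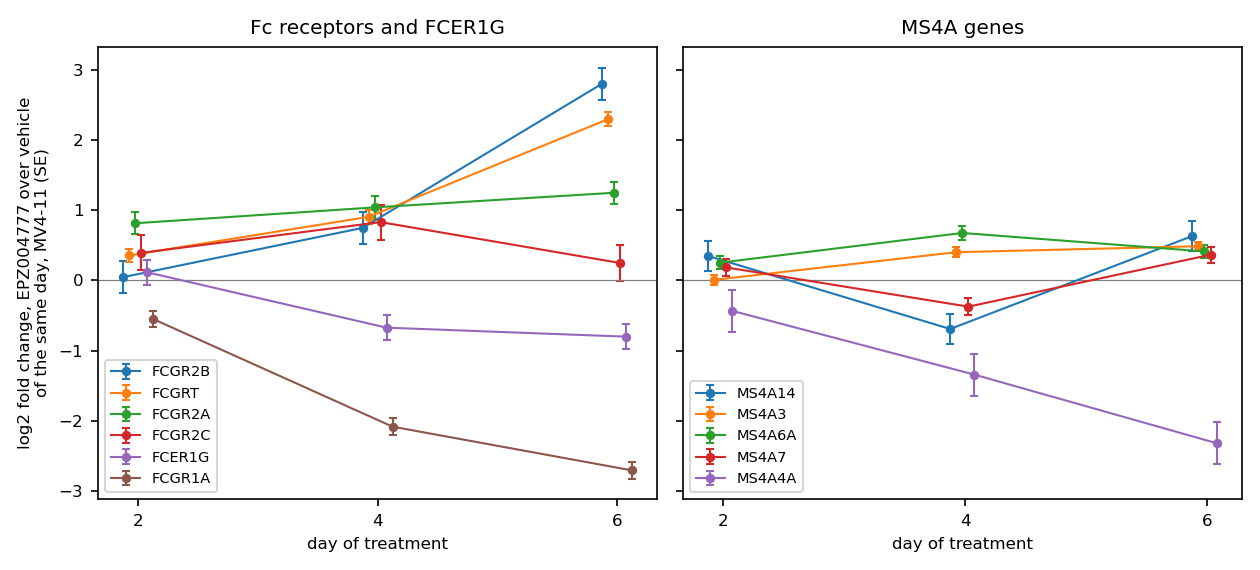
Log2 fold change of EPZ004777 over the vehicle of the same day (y axis, bars are the SE of the fit) against day of treatment in MV4-11 for 6 Fc receptor genes (left) and 5 MS4A genes (right). FCGR2B and FCGRT climb between days 4 and 6 while FCGR1A and MS4A4A go down with each day, though the steps of MS4A4A were not called. MS4A14 and MS4A7 dip on day 4, whose vehicle arrays stand apart.

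The TREM receptors signal through TYROBP. TREM1, an amplifier of inflammation on granulocytes and monocytes, was low in treated MV4-11 arrays on all days. It read 3.02, 3.12 and 2.92 in treated against 7.14, 5.86 and 7.25 in vehicle arrays on day 4 (log2 fold change -3.73 ± 0.57, adjusted p = 2.39e-05). On day 6, TREM1 read 2.92, 2.92 and 3.04 in treated against 6.55, 5.16 and 3.11 in vehicle arrays (-1.98 ± 0.57, adjusted p = 0.00552). On day 2, TREM1 read 3.09, 2.95 and 3.09 in treated against 3.40, 3.73 and 3.69 in vehicle arrays (-0.56 ± 0.57, adjusted p = 0.634). Treated arrays lay between 2.92 and 3.12, under the detection level, on all 3 days (at least 6.72-fold lower on day 4), whereas vehicle arrays were high on day 4 and far apart on day 6. Against the vehicle arrays of days 2 and 6, the treated arrays of day 4 differed by -1.25 ± 0.50, adjusted p = 0.0377, and on day 6 the value without vehicle replicate 1 was -1.18, adjusted p = 0.0541. In MOLM-13, TREM1 read 6.91, 5.79 and 5.19 in treated against 4.71, 3.78 and 4.69 in vehicle arrays (log2 fold change 1.57 ± 0.57, adjusted p = 0.022). This call needs treated replicate 1 (1.09 when it is left out, adjusted p = 0.127) and vehicle replicate 2 (1.26, adjusted p = 0.0956). The lines differed by 3.55 ± 0.81, adjusted p = 0.00121. TREM2, a lipid receptor of macrophages, read 7.64, 7.17 and 7.36 in treated against 8.12, 8.05 and 8.31 in vehicle arrays on day 4 (-0.77 ± 0.18, adjusted p = 0.0013; -0.65 ± 0.15, adjusted p = 0.00114 against the other days' vehicle). In MOLM-13, TREM2 read 8.47, 7.65 and 8.57 in treated against 7.64, 7.88 and 7.84 in vehicle arrays (0.45 ± 0.18, adjusted p = 0.0327), where the groups overlapped and the call was lost without any 1 of 3 arrays (0.27 to 0.37). It was not called on day 2 (8.23, 8.26 and 8.24 in treated against 7.65, 8.09 and 7.85 in vehicle arrays, 0.38 ± 0.18, adjusted p = 0.194) or day 6 (8.68, 8.54 and 8.66 in treated against 8.28, 8.35 and 8.03 in vehicle arrays, 0.41 ± 0.18, adjusted p = 0.0526).

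PILRA, an ITIM receptor for sialylated proteins, read 6.56, 6.87 and 7.09 in treated against 5.53, 5.49 and 5.54 in vehicle MOLM-13 arrays (log2 fold change 1.32 ± 0.12, adjusted p = 2.49e-08) and had no call in MV4-11, where its log2 fold changes were 0.14, -0.24 and 0.18 on days 2, 4 and 6. The lines differed by 1.13 ± 0.18, adjusted p = 2.77e-05. PILRB, the activating partner of PILRA, is read here only by probe sets that also list 2 neighbouring transcripts, and CLEC3B only by one shared with EXOSC7. Fitted as an alternative, the PILRB probe set gave 0.01 on day 2 (adjusted p = 0.968), 0.36 on day 4 (adjusted p = 0.000802), 0.90 on day 6 (adjusted p = 9.31e-09) and 1.14 in MOLM-13 (adjusted p = 3.61e-10). The CLEC3B probe set gave 0.41, 0.52, 0.77 and 0.95 in the same order, called in all but the first.

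The remaining C-type lectins changed less than CLEC12A. CLEC2D (LLT1), a ligand for the natural killer receptor KLRB1, read 5.75, 5.82 and 4.94 in treated against 7.62, 7.43 and 7.18 in vehicle arrays on day 6 (log2 fold change -1.91 ± 0.18, adjusted p = 1.84e-08). On day 4, CLEC2D read 6.56, 6.60 and 6.62 in treated against 6.94, 7.13 and 7.24 in vehicle arrays (-0.51 ± 0.18, adjusted p = 0.0236). In MOLM-13, CLEC2D read 6.62, 6.67 and 6.56 in treated against 6.95, 7.22 and 7.16 in vehicle arrays (-0.50 ± 0.18, adjusted p = 0.0186). The day 4 and MOLM-13 calls are lost when single arrays are left out (-0.51 to -0.44). The fall grew between days 4 and 6 (-1.40 ± 0.25, adjusted p = 0.000605). Its probe sets disagree: another was called higher on day 6 (0.66, adjusted p = 0.000877) and in MOLM-13 (1.16, adjusted p = 1.94e-06), and the last was called lower in both, with the main one. CLECL1 read 9.51, 9.24 and 9.25 in treated against 10.17, 10.05 and 9.98 in vehicle MOLM-13 arrays (-0.74 ± 0.07, adjusted p = 3.41e-08), a fall. It was called higher on day 4 (0.33 ± 0.07, adjusted p = 0.000817), and not against the other days' vehicle (0.08 ± 0.06, adjusted p = 0.274). CLEC11A, a secreted growth factor for blood progenitors, rose on day 4 (0.43 ± 0.10, adjusted p = 0.001), day 6 (0.74 ± 0.10, adjusted p = 1.7e-06) and in MOLM-13 (0.24 ± 0.10, adjusted p = 0.0321), the last losing its call without any 1 of 4 of the 6 arrays. CLEC4A (DCIR), an ITIM lectin, was near the floor in MV4-11 and rose in MOLM-13 to 4.36 ± 0.20, against 3.58 ± 0.16 with vehicle (0.78 ± 0.08, adjusted p = 1.19e-07). Against the detection level its rise was at least 1.28-fold. CLEC4A passed the filter only through the treated MOLM-13 arrays, so it had to differ there. CLEC16A, an intracellular protein of the endosomal and autophagy pathway, rose on day 4 (0.23 ± 0.08, adjusted p = 0.024) and day 6 (0.25 ± 0.08, adjusted p = 0.0129), calls lost when single arrays are left out (0.18 to 0.22), and gave 0.18 ± 0.08, adjusted p = 0.0528 in MOLM-13. CLEC10A, a galactose-type lectin of macrophages and dendritic cells, had no call in any of the 4 comparisons. Its day 2 arrays read 8.91, 8.87 and 8.83 in treated against 8.57, 8.49 and 8.54 in vehicle cultures (0.34 ± 0.24). Day 4 gave 9.17, 9.20 and 9.29 against 9.43, 9.39 and 9.64 (-0.27 ± 0.24), so neither day's groups overlapped. The groups overlapped on day 6 and in MOLM-13. That standard error comes from all 24 arrays, including vehicle MOLM-13 arrays at 2.82, 2.84 and 4.10. The missing calls on days 2 and 4 thus do not show an absent effect. The vehicle level of CLEC10A in MOLM-13 differed from that in MV4-11 by -5.79 ± 0.24, adjusted p = 3.19e-14.

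The MS4A genes encode proteins with 4 membrane spans that associate with other receptors. MS4A4A, found on alternatively activated macrophages, was lower with EPZ004777 on days 4 and 6 in MV4-11. On day 6 it read 7.74, 7.81 and 7.27 in treated against 9.91, 9.98 and 9.89 in vehicle arrays (log2 fold change -2.32 ± 0.30, adjusted p = 1.56e-06). On day 4, MS4A4A read 8.21, 8.18 and 8.13 in treated against 9.45, 9.59 and 9.51 in vehicle arrays (-1.34 ± 0.30, adjusted p = 0.00102). On day 2, MS4A4A read 9.34, 9.35 and 9.27 in treated against 9.68, 9.71 and 9.88 in vehicle arrays (-0.44 ± 0.30, adjusted p = 0.423). The MV4-11 groups overlapped on no day, and the day 4 value against the other days' vehicle was -1.67 ± 0.26, adjusted p = 1.77e-05. The change of effect was not called between days 2 and 4 (-0.91 ± 0.42, adjusted p = 0.174) or between days 4 and 6 (-0.98 ± 0.42, adjusted p = 0.0955). In MOLM-13 the arrays overlapped, with 5.85, 4.56 and 3.73 in treated against 5.78, 5.62 and 5.67 in vehicle arrays (-0.98 ± 0.30, adjusted p = 0.00752), and the call was lost without treated replicate 3 (-0.48, adjusted p = 0.0689) and with the 3' to 5' difference as a covariate (-0.18, adjusted p = 0.819). MS4A3 (HTm4), a cell cycle regulator of granulocyte and monocyte progenitors, rose on days 4 and 6 and in MOLM-13. On day 4 it read 14.10, 14.09 and 14.06 in treated against 13.66, 13.74 and 13.64 in vehicle arrays (0.40 ± 0.07, adjusted p = 6.44e-05). On day 6, MS4A3 read 14.26, 14.27 and 14.27 in treated against 13.77, 13.76 and 13.82 in vehicle arrays (0.49 ± 0.07, adjusted p = 3.92e-06). In MOLM-13, MS4A3 read 13.48, 13.47 and 13.49 in treated against 12.59, 12.19 and 12.32 in vehicle arrays (1.11 ± 0.07, adjusted p = 5.31e-11). These groups did not overlap. On day 2 its difference was 0.01 ± 0.07, adjusted p = 0.987, and a second MS4A3 probe set gave -0.35 (adjusted p = 0.0959) in MOLM-13. MS4A6A, a monocyte and macrophage gene, read 13.77, 13.77 and 13.82 in treated against 13.28, 13.08 and 12.97 in vehicle arrays on day 4 (0.67 ± 0.09, adjusted p = 7.18e-06). On day 6, MS4A6A read 13.70, 13.70 and 13.60 in treated against 13.11, 13.37 and 13.28 in vehicle arrays (0.41 ± 0.09, adjusted p = 0.000795). In MOLM-13, MS4A6A read 10.86, 10.48 and 10.81 in treated against 10.06, 10.24 and 10.00 in vehicle arrays (0.62 ± 0.09, adjusted p = 1.02e-05). The groups overlapped in none of these, and day 2 gave 0.25 ± 0.09, adjusted p = 0.0909, not called.

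MS4A7, a macrophage gene of the same cluster, read 10.41, 10.28 and 10.20 in treated against 10.65, 10.55 and 10.82 in vehicle arrays on day 4 (-0.38 ± 0.12, adjusted p = 0.0131). On day 6, MS4A7 read 10.50, 10.68 and 10.71 in treated against 10.36, 10.34 and 10.09 in vehicle arrays (0.36 ± 0.12, adjusted p = 0.0115), so that the 2 calls had opposite signs. Against the vehicle arrays of days 2 and 6 the day 4 value was 0.24 ± 0.10, adjusted p = 0.0484, a rise. In MOLM-13, MS4A7 read 10.48, 11.03 and 11.03 in treated against 10.81, 10.77 and 10.86 in vehicle arrays (0.03 ± 0.12, adjusted p = 0.847), where its 2 dimmer probe sets were called lower. MS4A14 behaved alike on day 4, with -0.69 ± 0.22, adjusted p = 0.0125 against its own day's vehicle and 0.43 ± 0.19, adjusted p = 0.0577 against the other days', and was higher on day 6 (0.63 ± 0.22, adjusted p = 0.016) and in MOLM-13 (0.81 ± 0.22, adjusted p = 0.00285). With the 3' to 5' difference as a covariate MS4A14 was not called on day 6 (0.45, adjusted p = 0.162) or in MOLM-13 (0.42, adjusted p = 0.424). The MS4A14 calls of day 4 (-0.61, adjusted p = 0.0543) and day 6 (0.23, adjusted p = 0.136) were lost without vehicle replicate 3 of the day, as were those of MS4A7 (-0.30 and 0.28). Without treated replicate 3, the day 6 call of MS4A14 (0.54) and the day 4 call of MS4A7 (-0.33) were lost too.

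On day 6 some members moved the same way in both lines and others did not. In both lines 14 members were higher, when 16.8% of all genes were (CD300LF, CLEC11A, CLEC12A, FCGR2B, FCGRT, LILRA2, LILRB2, MS4A14, MS4A3, MS4A6A, SIGLEC10, SIGLEC17P, SIGLEC6 and TYROBP) and 3 lower, when 18.8% of all genes were (CD300C, CLEC2D and MS4A4A). With 18 and 28 of 41 members higher in the single lines, the 14 are not read as a relation between them. None of the 3 lower members kept its MOLM-13 call with the 3' to 5' difference as a covariate, where CD300C was 0.29, CLEC2D 0.20 and MS4A4A -0.18. That difference and treatment cannot be told apart in MOLM-13. FCER1G, FCGR1A, SIGLEC7 and TREM1 were lower in MV4-11 and higher in MOLM-13, when 2.54% of all genes were, and FCGR2A was the reverse, when 5.24% were. A further 10 were called higher in MOLM-13 with no call in MV4-11, namely CD300LB, CLEC4A, LILRA1, LILRA6, LILRB1, LILRB3, PILRA, SIGLEC11, SIGLEC16 and TREM2, when 10.0% of all genes were. Without the 4 detected only in treated MOLM-13 arrays they number 6 of 37. The difference itself, MOLM-13 minus MV4-11, was called positive for 23 members and negative for 6 (19 and 6 of the 37), when 52.0% of all genes were called, 19.3% positive and 32.7% negative, with a median of 0.63 for the members and -0.10 for all genes. Of the 10, that difference was not called for LILRA6 (adjusted p = 0.0574), LILRB1 (adjusted p = 0.242) and TREM2 (adjusted p = 0.907), so these 3 are not shown to differ between the lines.

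**Figure D4:**
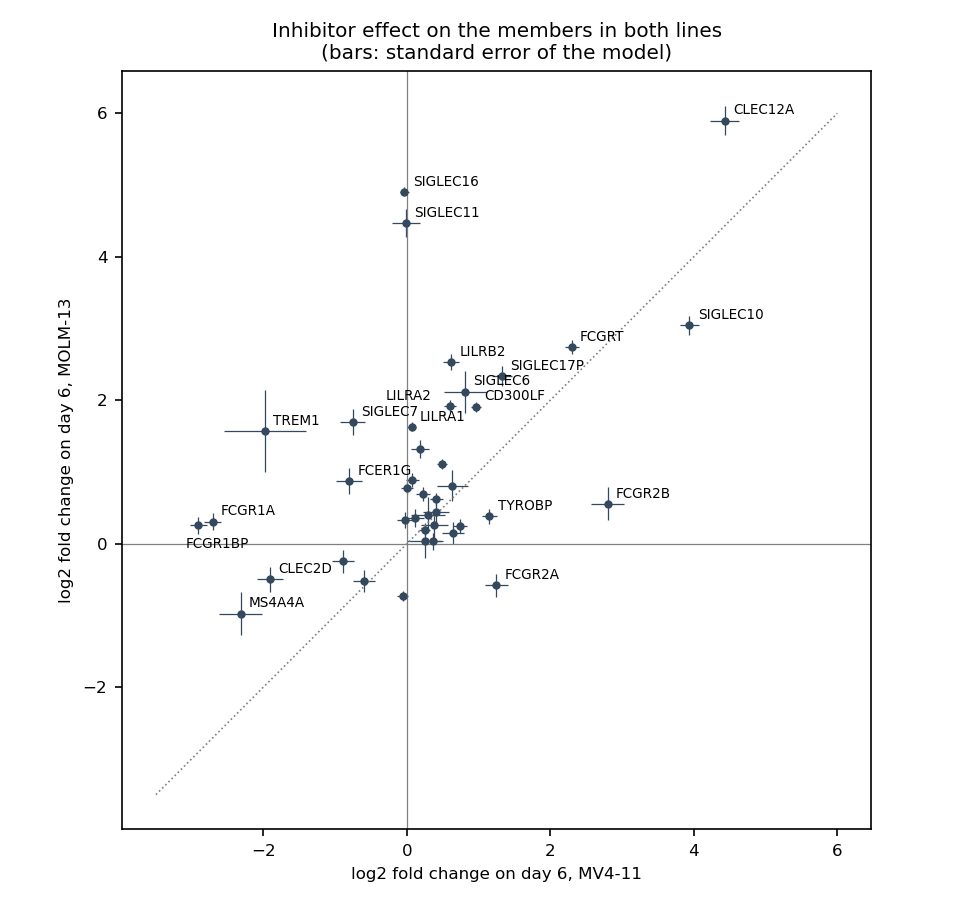
Log2 fold change of EPZ004777 over vehicle on day 6 in MOLM-13 (y axis) against that in MV4-11 (x axis) for the 41 detected members, with the SE of the fit as bars and the line of equal effect dotted. CLEC12A and SIGLEC10 are high in both lines, SIGLEC11 and SIGLEC16 lie on the MV4-11 zero line, and FCGR1A, SIGLEC7 and TREM1 lie in the upper left.

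The vehicle cultures show where the lines started. In vehicle MOLM-13, 7 members were higher and 21 lower than in vehicle MV4-11 on day 6, when 63.8% of all genes were called, 30.7% higher and 33.1% lower. The largest differences, all lower in MOLM-13, were FCER1G (-6.61), CLEC10A (-5.79), MS4A4A (-4.24), MS4A6A (-3.16), LILRB2 (-2.20) and LILRA1 (-2.16) on the log2 scale. For FCER1G and CLEC10A, 2 of the 3 vehicle MOLM-13 arrays lay under the detection level, so the exact sizes are uncertain. CD300A (1.41) and MS4A14 (1.01) were higher in vehicle MOLM-13. Vehicle arrays enter both this comparison and the treatment effects, so these values are not independent. Within treated MOLM-13, FCER1G at 4.78 ± 0.45 and CLEC10A at 3.66 ± 0.37 stayed below treated MV4-11 of day 6, at 9.72 ± 0.28 and 9.34 ± 0.15.

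Downstream of these receptors, a list of 32 ITAM and ITIM signalling genes had 27 with a probe set naming that gene alone, and all 27 were detected. The rest of the list was not read. Of these, 4 were higher and 1 lower on day 2, 10 and 4 on day 4, 13 and 4 on day 6, and 14 and 4 in MOLM-13, with medians of 0.03, 0.12, 0.19 and 0.20 on the log2 scale. Of all genes, 8.84% were higher and 3.69% lower on day 2, and 25.2% and 21.0% on day 4. Those shares were 33.6% and 28.4% on day 6 and 29.3% and 36.5% in MOLM-13. The medians of all genes were 0.02, 0.01, 0.04 and -0.03 in the same order. On day 6 and in MOLM-13 the called shares, 17 and 18 of 27, are near the 62.0% and 65.8% of all genes and are no result about the list. The counts of days 2 and 4 are not read as a result about it either. The B cell linker BLNK rose by 2.69 ± 0.19, adjusted p = 3.19e-10 on day 6 in MV4-11 and gave -0.02 in MOLM-13, not called. PLCG2, the phospholipase below SYK and BTK, rose by 0.64 ± 0.05, adjusted p = 5.35e-09 in MV4-11 and by 0.35 in MOLM-13. HCST (DAP10), an activating adaptor, rose by 0.86 ± 0.08, adjusted p = 1.4e-08 in MV4-11 and by 0.89 in MOLM-13. DOK2, an inhibitory docking protein, rose by 0.51 ± 0.06, adjusted p = 1.07e-06 in MV4-11 and by 0.56 in MOLM-13. SLA2, an adaptor that limits receptor signalling, rose by 1.11 ± 0.17, adjusted p = 1.07e-05 in MV4-11 and gave 0.19 in MOLM-13, not called. PTPN6 (SHP-1), the phosphatase that ITIMs recruit, changed by -0.44 ± 0.06, adjusted p = 2.11e-06 in MV4-11 and by 0.43 ± 0.06, adjusted p = 2.94e-06 in MOLM-13, a fall and a rise. SYK, the kinase that ITAMs recruit, rose by 0.24 ± 0.07, adjusted p = 0.00576 in MV4-11 and by 0.67 ± 0.07, adjusted p = 7.87e-08 in MOLM-13. PTPN11 (SHP-2) was called lower in both lines, with -0.26 ± 0.06, adjusted p = 0.000683 in MV4-11 and -0.19 ± 0.06, adjusted p = 0.00862 in MOLM-13. INPP5D (SHIP-1) had no call in either (0.11 in MV4-11 and -0.05 in MOLM-13). FGR, a kinase of the SRC family, had the largest change of the list in MOLM-13, 4.02 ± 0.12, adjusted p = 5.49e-16, and gave -0.55 ± 0.12, adjusted p = 0.000391 in MV4-11. SYK, PTPN11, INPP5D and FGR were chosen after their values were seen. BLNK, PLCG2, HCST, DOK2, PTPN6 and SLA2 have the smallest adjusted p of the list on day 6 in MV4-11. None of the genes named here is thus a fair sample of the list. In MOLM-13, NCK1 (-0.83), LCP2 (-0.30) and LYN (-0.21) were also called lower, and LAT2 (-0.34) was on day 6 in MV4-11.

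The other 38 members were not detected: CD22, CD300LD-AS1, CD300LG, CLEC12B, CLEC14A, CLEC18A, CLEC18C, CLEC1A, CLEC1B, CLEC2B, CLEC2L, CLEC3A, CLEC4C, CLEC4D, CLEC4E, CLEC4F, CLEC4G, CLEC4GP1, CLEC4M, CLEC5A, CLEC7A, FCGR3A, FCGR3B, LILRA3, LILRA4, LILRA5, LILRB5, LILRP2, MS4A1, MS4A12, MS4A15, MS4A5, MS4A6E, MS4A8, SIGLEC15, SIGLEC8, SIGLEC9 and SIGLECL1. These include the B cell genes CD22 and MS4A1 (CD20), the fungal receptor CLEC7A (Dectin-1) and the low-affinity FCGR3 receptors. None passed 4 in more than 1 array, and the highest single value was 4.64, so a low level under the detection limit is not shown to be absent.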

How the data were processed

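RNA in 8 groups was read on 24 Affymetrix arrays of 54675 probe sets. The authors deposited linear intensities made by GCRMA, per the submitters' processing notes (version not stated there). All 24 arrays share the lowest intensity, 4.551. Values were taken as log2 with a pseudocount of 0. Probe sets were named by the platform annotation (41097 with 1 symbol, 1801 with several, 11777 with none) and 62 control probe sets were left out. Each gene took its probe set of highest mean, and genes at log2 4 or more in 3 or more arrays were kept, 10964 in all. Fold changes come from 1 linear model over all 24 arrays with moderated variances (limma 3.58.1, run in R 4.3.3), and Benjamini-Hochberg adjustment ran over all 10964 genes. The number of arrays limits precision; an exact permutation test of 3 against 3 cannot go below p = 0.1. The test was checked on simulated data. Members and lists were chosen with earlier results of these data known, and 1 symbol of the rule is not reported here. Values in every array are given for up to 6 members with the largest called rise and up to 6 with the largest called fall in each treatment comparison, for a list of well-known members, and for the 4 members with the smallest adjusted p in each difference of effects. Alternatives covered the filter, an added 16, fewer arrays, variance prior, probe set choice, normalization, a replicate block, a 2-fold minimum, the 3' to 5' difference and left-out arrays. No pairing by replicate number was seen: correlations of same-numbered deviations ran from -0.262 to 0.096. Such values cannot show that the samples were made without pairing.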

Additional observations from a re-analysis of the deposited data

Results flagged for a closer look

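The effect of EPZ004777 was tested for a difference between days and between lines, and the members below differed at an adjusted p under 0.05 in limma; all values are differences of log2 fold change.

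Day 4 minus day 2 in MV4-11 was positive for CLEC12A (2.05), SIGLEC10 (1.70), FCGRT (0.55), MS4A6A (0.42), MS4A3 (0.39) and CLECL1 (0.39). It was negative for TREM1 (-3.17), FCGR1BP (-1.79), FCGR1A (-1.53), CD300A (-1.43), SIGLEC7 (-1.35), TREM2 (-1.15), MS4A14 (-1.04), FCER1G (-0.79) and MS4A7 (-0.56). The vehicle arrays of day 4, which stand apart from those of days 2 and 6, enter each of these values. TREM1 was also the member whose day 4 vehicle arrays differed most from the other days (2.48).

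Day 6 minus day 4 was positive for FCGR2B (2.05), FCGRT (1.39), MS4A14 (1.32), TREM2 (1.18), SIGLEC1 (1.13), SIGLEC7 (0.96), SIGLEC10 (0.92), CD300A (0.78), MS4A7 (0.74), TYROBP (0.50) and CD300LF (0.47). Negative values were found for CLEC2D (-1.40), LILRA1 (-0.72), FCGR1A (-0.62), FCGR1BP (-0.58) and CLECL1 (-0.39). The day 4 vehicle arrays enter these values too.

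MOLM-13 minus MV4-11 on day 6 was positive for SIGLEC16 (4.94), SIGLEC11 (4.48), TREM1 (3.55), FCGR1BP (3.16), FCGR1A (3.01), SIGLEC7 (2.45), LILRB2 (1.91), FCER1G (1.67), LILRA1 (1.56), CLEC12A (1.47), CLEC2D (1.41), MS4A4A (1.34), LILRA2 (1.31), SIGLEC6 (1.31), PILRA (1.13), SIGLEC17P (1.01), CD300LF (0.95), CD300LB (0.82), CLEC4A (0.78), CD300A (0.64), MS4A3 (0.63), LILRB3 (0.47) and FCGRT (0.44). The effect was more negative or less positive in MOLM-13 for FCGR2B (-2.24), FCGR2A (-1.82), SIGLEC10 (-0.89), TYROBP (-0.76), CLECL1 (-0.67) and CLEC11A (-0.49). SIGLEC16 was at the floor in vehicle MOLM-13 arrays, so its size depends on that floor, and SIGLEC11, SIGLEC16, CLEC4A and CD300LB were detected only in treated MOLM-13 arrays. The 3' to 5' difference of control probe sets was 2.10 to 2.84 in treated and 0.954 to 1.15 in vehicle MOLM-13 arrays. With that difference as a covariate, 24 members were called in MOLM-13, and 33 without it. The difference and treatment cannot be told apart there.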

How the results depend on the processing

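Fitting only the arrays of the comparison gave 19 members called on day 2 (12 with all arrays) and, for vehicle day 6 against day 2, 0 by limma, with 12 at an unadjusted p under 0.05. With every probe set counted, 71 in all, 19 were called on day 2, 53 on day 4, 46 on day 6 and 54 in MOLM-13, with 44 for MOLM-13 minus MV4-11 and 54 between vehicle lines. At 2-fold or more, the counts were 3, 10, 12 and 15 in the treatment comparisons, 9 for day 4 minus day 2, 6 for day 6 minus day 4, 18 for MOLM-13 minus MV4-11, 15 between vehicle lines, 1 for vehicle day 6 against day 2 and 3 for vehicle day 4.

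Leaving out 1 array at a time gave 10 to 11 on day 2, 26 to 30 on day 4, 23 to 28 on day 6, 27 to 32 in MOLM-13, 11 to 14 for day 4 minus day 2, 15 to 17 for day 6 minus day 4, 28 to 31 for MOLM-13 minus MV4-11, 26 to 29 between vehicle lines, 12 to 17 for vehicle day 4, and 2 to 9 for vehicle day 6 against day 2, where 9 came without day 6 vehicle replicate 3. Of the members' single results, 913 kept call and direction, 63 lost the call and 8 gained it, and 0 reversed.

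Across the other alternatives 1979 kept both, 113 lost the call, 34 gained it and 11 reversed. Against the vehicle arrays of days 2 and 6, day 4 reversed for MS4A14 (0.43), MS4A7 (0.24), SIGLEC1 (0.070) and SIGLEC6 (1.22). With a mean over probe sets, LILRA1 (-0.30) and MS4A7 (-0.30) reversed on day 6, and MS4A7 in MOLM-13 (-0.69). With the 3' to 5' difference as covariate, CD300C (0.29), CLEC11A (-0.077), CLEC2D (0.20) and FCGR2A (0.23) reversed in MOLM-13 with no call; the cause was not tested. With the replicate block the counts were 12, 32, 27 and 33 in the treatment comparisons, and it changed no member's call there. That covariate also ended calls in MOLM-13 for FCGR1A (0.53), FCGR2B (0.37), LILRA6 (0.40), MS4A14 (0.42), MS4A4A (-0.18) and TREM1 (1.71), and on day 6 in MV4-11 for CD300C (-0.21), CLEC16A (0.20), MS4A14 (0.45) and MS4A7 (0.21). The mean over probe sets ended those of FCGR2A on day 2 (0.21), CLEC16A (0.07), CLEC2D (-0.16) and SIGLEC11 (-0.34) on day 4, CLEC16A (0.13), LILRA2 (0.14) and SIGLEC6 (0.27) on day 6, and CLEC2D (-0.07) and FCGR1A (0.15) in MOLM-13. Signal near or under the detection level limits SIGLEC16, SIGLEC11, SIGLEC1, CLEC4A, CD300LB and FCGR2B, CLEC12A in vehicle arrays, TREM1 in treated MV4-11 arrays, and FCER1G and CLEC10A in MOLM-13.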
